A study of Rattus norvegicus with 18 samples.

Results

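The genes described here are antagonists, co-receptors and effectors of Wnt signalling in the rat nucleus pulposus, the soft centre of the disc between vertebrae. They were chosen by name as Dkk3, Frzb, Sfrp1, Sfrp2, Wif1, Lrp5, Lrp6, Ctnnb1, Axin2 and Tcf7l2. Of these 10 names, 9 had a row among the 18923 genes of the expression table, and Sfrp1 was not analysed here. The study compared nucleus pulposus tissue of rats aged 2, 10 and 20 months. Each age had 3 input libraries of poly(A) RNA, which measure RNA abundance, and the antibody-enriched libraries for N6-methyladenosine were not analysed here. The labels give no strain, sex or treatment. Nothing in them states that the replicates of 1 age were different rats, so p-values cover only library-to-library spread, and this can be technical.

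Wnt proteins are secreted ligands that bind Frizzled receptors together with the co-receptors LRP5 and LRP6. In cells without Wnt, a destruction complex of Axin, APC, casein kinase 1 and GSK3 marks beta-catenin for degradation, and in cells that receive Wnt this complex is inhibited, so that beta-catenin enters the nucleus and acts on genes bound by TCF and LEF factors. Secreted antagonists limit the pathway from outside the cell: the Frizzled-related proteins (Frzb, Sfrp1, Sfrp2) and Wif1 bind the ligands, and several but not all Dickkopf proteins act at the co-receptors. In the disc the pathway is known for its activity in the notochord-derived cells of the nucleus pulposus.

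Levels are given in FPKM, fragment counts scaled for transcript length and library size, which can be compared between genes. Libraries held 3.53 to 5.04 gigabases of alignments. The tissue label was checked against markers of nucleus pulposus and notochord cells: Krt19 and the notochord transcription factor gene Tbxt stood at 3247 to 5488 and at 2097 to 2486 FPKM over the 9 libraries, while Foxa2, Pax1 and Shh of the same list were below 1 FPKM in each. The 20-month libraries stood apart as a group. Their commonest read length was 141 bases, against 132 bases at 2 and 10 months, and 80.1 to 80.9% of their bases lay on listed transcripts, against 85.7 to 86.1% at 2 months and 85.7 to 85.9% at 10 months. Mitochondrial genes held 0.0868 to 0.111% of FPKM at 20 months, against 0.456 to 0.563% at 2 months and 0.561 to 0.690% at 10 months. The share of ribosomal protein genes did not overlap between any ages: it lay between 13.9 and 14.3% in the 2-month libraries, between 16.3 and 16.5% in the 10-month libraries and between 20.3 and 20.9% in the 20-month libraries. The part of these differences in the changes below was not tested. Age and whatever set these libraries apart cannot be told apart in the comparisons with 20 months. As deposited, the median tested gene changed by log2 -0.20 for 20 against 2 months and by -0.23 for 20 against 10 months. Scaling by the median of ratios moved the median gene by 0.21 and 0.24, so many values are also given after that scaling. The 3 comparisons share libraries, so they are not independent of each other.

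The 9 genes spanned the range from absence to high expression. At 2 months Ctnnb1 was the highest, at 63.5 ± 0.257 FPKM (SD, n = 3), above 91.3% of the 11708 tested genes. Below it came Dkk3, Lrp5, Lrp6 and Tcf7l2, the last at 8.15 ± 0.299 FPKM, and Wif1 lay near 1 FPKM. Axin2 and Frzb had values under 0.5 FPKM in every library. At 2 months the libraries of neighbours in this order did not overlap, except for Axin2 and Frzb, which overlapped at each age. The order of Lrp5 and Lrp6 changed: Lrp6 was above Lrp5 at 10 months, and their libraries overlapped at 20 months. A gene was tested if it reached 1 FPKM in at least 3 of the 9 libraries. 6 of the 9 genes passed this filter, and Frzb, Sfrp2 and Axin2 did not. Tests were limma's on log2(FPKM + 1) in 1 fit over all libraries, a scale that understates changes of low genes, with adjustment over all tested genes and a threshold of 0.05. In bulk tissue, fewer cells of a type and less RNA per cell cannot be told apart.

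**Figure D1:**
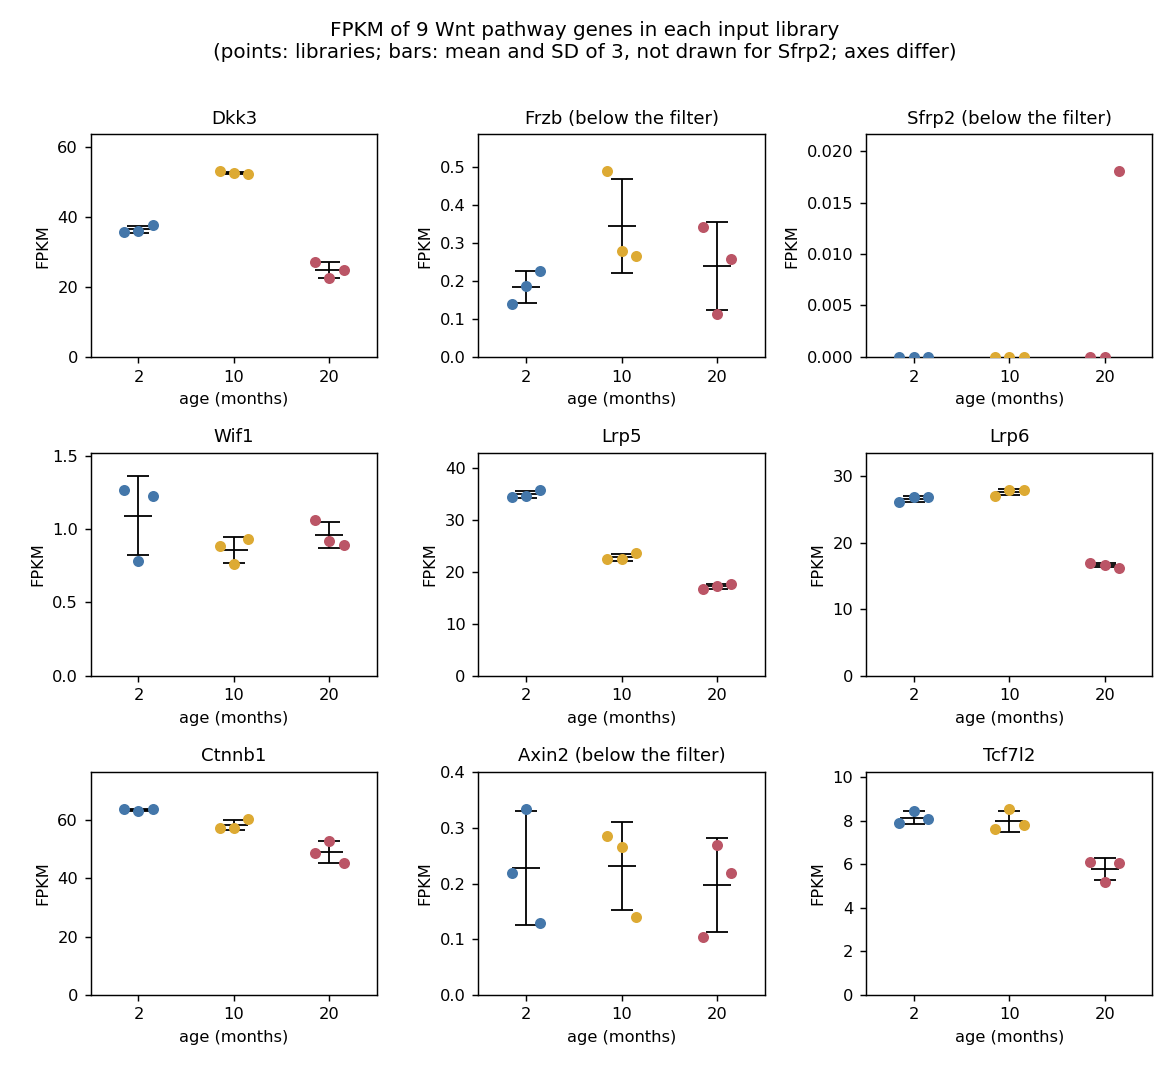
FPKM of the 9 genes in each of the 9 input libraries by age in months, with each point a library and bars for the mean and SD of 3 libraries (not drawn for Sfrp2, which is listed at 0 in 8 libraries). Dkk3 is highest at 10 months, Lrp5 is lower at each later age, and Lrp6 is near 27 FPKM at 2 and 10 months and 16.3 to 16.9 FPKM at 20 months.

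Among the antagonists, Dkk3 was the only one with a substantial level, and it moved in both directions with age. Dkk3 is a secreted glycoprotein, a divergent member of the Dickkopf family whose effect on Wnt signalling differs between cell types. Its single listed transcript of 8 exons lies on the minus strand of chromosome 1 (176940693 to 176983045; the coordinates of the expression table are printed as deposited, in a build not given in the sources used here). Dkk3 stood at 35.9, 36.0 and 37.7 FPKM in the 2-month libraries, at 53.1, 52.6 and 52.5 FPKM at 10 months and at 27.1, 22.7 and 24.9 FPKM at 20 months. All libraries of 10 months were thus above, and all of 20 months below, those of 2 months. Dkk3 rose at 10 against 2 months by log2 0.52 ± 0.057 (SE, adjusted p = 2.77e-04), a mean 44.4% higher. Of all tested genes, 19% were called higher and 11.4% lower in this comparison. At 20 months it fell by 0.54 ± 0.057 against 2 months (adjusted p = 3.35e-05) and by 1.06 ± 0.057 against 10 months (adjusted p = 1.68e-06), a mean 52.8% below that of 10 months. Under median-of-ratios scaling the 3 changes were 0.48, -0.32 and -0.80, each still called (adjusted p = 2.95e-04, 6.76e-04 and 4.59e-06). The share of all tested genes called lower was 49.6% for 20 against 2 months and 53.3% for 20 against 10 months, and after that scaling it was 31.2% and 25.7%.

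Wif1, Frzb and Sfrp2, whose proteins bind Wnt ligands, were at or below about 1 FPKM at every age. Wif1 (chromosome 7, 63094911 to 63165159, plus strand) had 1.26, 0.782 and 1.23 FPKM at 2 months, 0.884, 0.762 and 0.933 FPKM at 10 months and 1.06, 0.921 and 0.895 FPKM at 20 months. The ages overlapped in every comparison. It passed the filter with exactly 3 libraries at or above 1 FPKM, and its log2 changes of -0.16 ± 0.11 for 10 against 2 months, -0.087 ± 0.11 for 20 against 2 months and 0.075 ± 0.11 for 20 against 10 months did not pass the test (adjusted p = 0.297, 0.499 and 0.57). Frzb, also called Sfrp3 and first known from cartilage (chromosome 3, 67635607 to 67668772, minus strand), ranged from 0.140 to 0.225 FPKM at 2 months, from 0.266 to 0.489 FPKM at 10 months and from 0.114 to 0.344 FPKM at 20 months. The 10-month libraries lay above those of 2 months, but these levels rest on 1.37 to 5.82 kilobases of alignments per library, against 479 to 1248 kilobases for Dkk3. With no filter on low values, none of the changes of Frzb passed (adjusted p = 0.2 for 10 against 2 months, 0.604 for 20 against 2 months and 0.323 for 20 against 10 months). The scale of the test understates changes of low genes, so this does not show that Frzb was unchanged. Sfrp2 (chromosome 2, 182723854 to 182731764, plus strand) was listed at 0 in 8 libraries and at 0.018 FPKM in replicate 3 of 20 months. This value rests on 0.207 kilobases of alignments. Replicate 3 of 20 months also had the highest summed level of 10 annulus and tendon fibroblast markers, 120.5 FPKM, against 28.1 and 36.2 FPKM in the other 20-month libraries and at most 22.4 FPKM at 2 and 10 months, and of 9 skeletal muscle markers, 279 FPKM against 5.14 to 33.6 FPKM. The part of such cells in the value of Sfrp2 was not tested, and 0.207 kilobases are too few to test it.

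Both co-receptor genes were lower at 20 than at 2 months, and they differed in what they did at 10 months. Lrp5 and Lrp6 encode related single-pass membrane proteins that bind Wnt beside Frizzled, and LRP5 is best known for its effect on bone mass. Lrp5 (chromosome 1, 218816841 to 218920094, minus strand) stood at 34.4, 34.5 and 35.6 FPKM at 2 months, at 22.4, 22.4 and 23.5 FPKM at 10 months and at 16.7, 17.3 and 17.7 FPKM at 20 months. No ages overlapped, and each later age was lower. Against 2 months Lrp5 fell by 0.59 ± 0.038 at 10 months (adjusted p = 2.42e-05) and by 0.98 ± 0.038 at 20 months (adjusted p = 1.22e-07), where its mean was 50.6% lower. Against 10 months it fell by 0.38 ± 0.038 at 20 months (adjusted p = 3.44e-05), a change of -0.13 under median-of-ratios scaling (adjusted p = 0.0275). For the comparisons of 10 and of 20 with 2 months the scaled changes were -0.63 and -0.76.

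Lrp6 (chromosome 4, 168194927 to 168323751, minus strand) had 26.2, 26.9 and 26.9 FPKM at 2 months, 27.1, 27.9 and 27.9 FPKM at 10 months and 16.9, 16.7 and 16.3 FPKM at 20 months. Its level at 10 months lay above that of 2 months by less than the test could call, with a log2 change of 0.050 ± 0.034 (adjusted p = 0.303). At 20 months Lrp6 fell by 0.65 ± 0.034 against 2 months (adjusted p = 6.06e-07) and by 0.70 ± 0.034 against 10 months (adjusted p = 1.11e-06). Median-of-ratios scaling gave changes of -0.43 and -0.44 (adjusted p = 6.31e-06 and 1.02e-05).

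The ratio of both co-receptors within a library does not depend on how libraries are scaled. This ratio, and that of Dkk3 to Lrp6, were chosen after the values were seen. Lrp5 over Lrp6 was 1.32, 1.28 and 1.32 at 2 months, 0.826, 0.805 and 0.843 at 10 months and 0.983, 1.04 and 1.08 at 20 months. The 3 ages did not overlap: Lrp5 was the higher of the pair at 2 months, the lower at 10 months, and near Lrp6 at 20 months. Dkk3 over Lrp6 was 1.37, 1.34 and 1.40 at 2 months, 1.96, 1.88 and 1.88 at 10 months and 1.60, 1.36 and 1.53 at 20 months. The 10-month libraries were the highest, and those of 2 and 20 months overlapped. In exact two-sided permutation tests, 5 of the 6 comparisons of these ratios gave p = 0.1 (adjusted p = 0.12), the smallest p that 3 against 3 libraries allow, and Dkk3 over Lrp6 at 20 against 2 months gave p = 0.3.

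**Figure D2:**
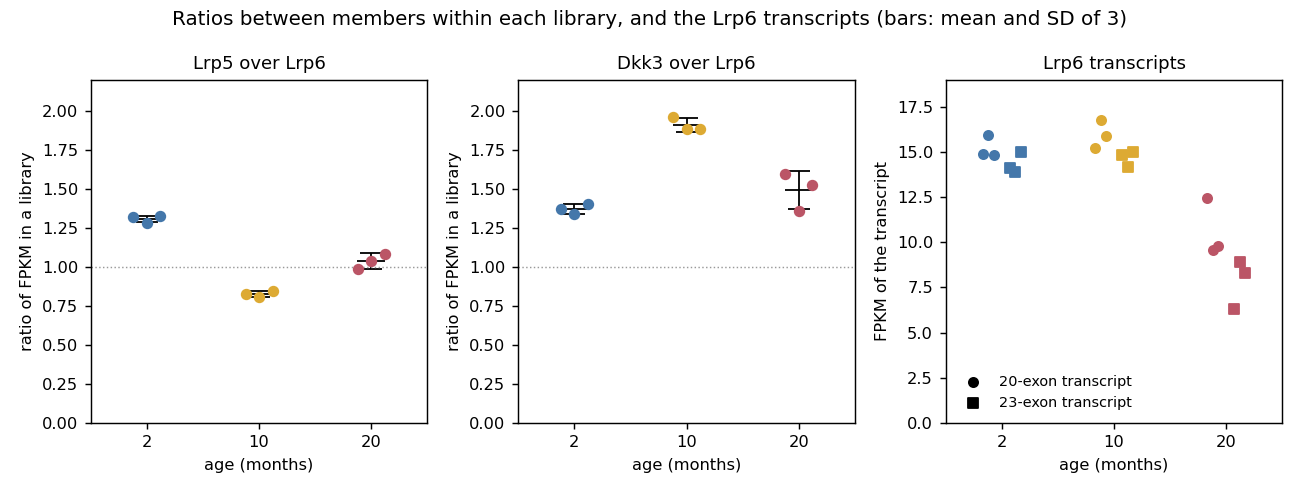
Ratios of FPKM within each library for Lrp5 over Lrp6 and Dkk3 over Lrp6, and FPKM of both Lrp6 transcripts, by age in months, with each point a library and, for the ratios, bars for the mean and SD of 3 libraries. Lrp5 over Lrp6 is above 1 at 2 months, below 1 at 10 months and between 0.983 and 1.08 at 20 months, and 1 library of 20 months has the transcripts farther apart than the others.

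Lrp6 was the only one of the 9 genes with more than 1 listed transcript. A transcript of 20 exons (5092 bases) and one of 23 exons (5082 bases) shared its reads, and since their genomic spans overlap, how the reads were split between them is uncertain. The 20-exon transcript made up 51.5 ± 1.87% of Lrp6 at 2 months, 52.1 ± 1.83% at 10 months and 57.4 ± 7.79% at 20 months. The wide spread at 20 months came from replicate 1, with 66.3%, while replicates 2 and 3 had 51.8 and 54.1%. Transcript use, the log2 ratio of the 20-exon to the 23-exon form in a limma fit over all isoforms, did not pass at 20 against 2 months (0.33 ± 0.23, adjusted p = 0.404), at 20 against 10 months (0.30 ± 0.23, adjusted p = 0.47) or at 10 against 2 months (0.034 ± 0.23, adjusted p = 0.999). In these comparisons 11.1%, 7.52% and 0.253% of the 2765 isoforms tested were called. Without replicate 1 of 20 months the log2 ratios were 0.079 for 20 against 2 months and 0.046 for 20 against 10 months. Both transcripts had lower FPKM at 20 months than at the other ages in every library.

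The effectors Ctnnb1 and Tcf7l2 were lower at 20 months than at the other ages. Ctnnb1 encodes beta-catenin, which also links cadherins to the actin skeleton at cell contacts. It lies on the plus strand of chromosome 8 (129617812 to 129627372) and stood at 63.7, 63.2 and 63.7 FPKM at 2 months, at 57.2, 57.4 and 60.4 FPKM at 10 months and at 48.9, 52.9 and 45.4 FPKM at 20 months. No ages overlapped. Ctnnb1 fell at 20 months by 0.37 ± 0.052 against 2 months (adjusted p = 2.03e-04) and by 0.25 ± 0.052 against 10 months (adjusted p = 0.00257). The change against 10 months was close to that of the median gene: with median-of-ratios scaling it was 0.016 (adjusted p = 0.818), and that against 2 months was -0.14 (adjusted p = 0.041). At 10 against 2 months the change of -0.12 ± 0.052 missed the threshold (adjusted p = 0.108), and it passed when the 20-month libraries were left out of the fit (adjusted p = 0.0123).

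Tcf7l2 encodes TCF4, a DNA-binding partner of beta-catenin (chromosome 1, 276659542 to 276730514, plus strand). It had 7.88, 8.47 and 8.10 FPKM at 2 months, 7.61, 8.53 and 7.81 FPKM at 10 months and 6.10, 5.20 and 6.04 FPKM at 20 months. The 2- and 10-month libraries overlapped, and all 20-month libraries lay below both. Tcf7l2 fell at 20 months by 0.44 ± 0.068 against 2 months (adjusted p = 4.00e-04) and by 0.41 ± 0.068 against 10 months (adjusted p = 7.21e-04). With median-of-ratios scaling the changes were -0.24 against 2 months (adjusted p = 0.0125) and -0.17 against 10 months (adjusted p = 0.0529), and the change against 10 months was no longer called. At 10 against 2 months the change was -0.028 ± 0.068 (adjusted p = 0.789).

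Axin2, a scaffold of the destruction complex, is a direct target of beta-catenin in many tissues and is widely used as a readout of the pathway. It lies on the plus strand of chromosome 10 (97212432 to 97239642). Its level was low throughout, at 0.219, 0.334 and 0.129 FPKM at 2 months, 0.286, 0.267 and 0.140 FPKM at 10 months and 0.104, 0.269 and 0.219 FPKM at 20 months. The ages overlapped fully, on 1.46 to 6.35 kilobases of alignments per library. With no filter on low values, no change of Axin2 passed. The adjusted p was 1 for 10 against 2 months, 0.766 for 20 against 2 months and 0.743 for 20 against 10 months. The log2(FPKM + 1) scale understates changes at such levels, so these tests cannot tell whether Axin2 changed. The promoters of Axin2 and of the called effectors are shown to set the readout gene beside the genes that act on it. They are the 250 bases before the gene start in RefSeq (build GRCr8), in lower case with CTTTGAT or CTTTGAA, the core letters bound by TCF and LEF factors, in capitals.

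Axin2, chr10:94398535-94398784, plus strand: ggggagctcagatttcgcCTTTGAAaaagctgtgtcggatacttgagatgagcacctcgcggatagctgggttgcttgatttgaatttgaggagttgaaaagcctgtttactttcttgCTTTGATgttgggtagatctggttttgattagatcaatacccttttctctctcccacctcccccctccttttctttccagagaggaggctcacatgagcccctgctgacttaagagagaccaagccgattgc
Ctnnb1, chr8:129533887-129534136, plus strand: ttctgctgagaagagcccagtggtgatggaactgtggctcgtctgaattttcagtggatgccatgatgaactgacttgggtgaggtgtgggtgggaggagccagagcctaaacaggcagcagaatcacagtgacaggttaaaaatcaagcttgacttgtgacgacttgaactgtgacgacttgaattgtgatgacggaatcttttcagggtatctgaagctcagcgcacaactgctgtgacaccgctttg
Tcf7l2, chr1:264791085-264791334, plus strand: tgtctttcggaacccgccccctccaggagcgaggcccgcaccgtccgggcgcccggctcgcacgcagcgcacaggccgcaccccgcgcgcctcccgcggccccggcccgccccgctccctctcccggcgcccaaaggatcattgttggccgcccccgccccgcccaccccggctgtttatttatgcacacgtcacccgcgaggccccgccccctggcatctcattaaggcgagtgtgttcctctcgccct

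Both strands were searched, and the matches do not overlap. Axin2 held a CTTTGAA 232 bases and a CTTTGAT 132 bases before the gene start, both read on the strand of the gene. Of the 9 genes, 6 had an entry, and in Frzb, Sfrp2, Wif1, Ctnnb1 and Tcf7l2 these letters were not in the window. Among all 33469 promoters searched, 7.58% held at least 1 match. A match is a description of the letters and not a measured binding site.

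Together, 1 of the 6 tested genes was called higher (Dkk3) and 1 lower (Lrp5) at 10 against 2 months, where 30.3% of all tested genes were called (29.7% under median-of-ratios scaling). Dkk3, Lrp5, Lrp6, Ctnnb1 and Tcf7l2, 5 of the 6, were called lower at 20 months in each comparison. Of all tested genes 68.2% were called against 2 months (49.6% lower) and 64.7% against 10 months (53.3% lower). The calls of these 5 genes stood in each fit that left out 1 library, replicate 3 of 20 months included. Under median-of-ratios scaling the 5 genes were called lower against 2 months, where 62.4% of all tested genes were called (31.1% higher and 31.2% lower). Against 10 months 3 (Dkk3, Lrp5 and Lrp6) were called lower, where 52.5% were called (26.8% higher and 25.7% lower). Libraries did not overlap for 4 of the 6 genes at 10 against 2 months and for 5 of the 6 in both comparisons with 20 months, against 53.8% of all tested genes for 10 against 2, 70.4% for 20 against 2 and 67.9% for 20 against 10 months. The median log2 change of the 6 genes was -0.075, -0.49 and -0.40 in these comparisons, against 0.040, -0.20 and -0.23 over all tested genes. The same 5 genes passed limma's moderated F test for any difference among the ages, as did 75.4% of all tested genes (67.1% under median-of-ratios scaling).

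Summed levels of cell type markers were also measured at each age. Nucleus pulposus and notochord markers (14 of 18 in the table) summed to 30894 to 32231 FPKM at 2 months, 26719 to 27036 FPKM at 10 months and 26621 to 27956 FPKM at 20 months. Annulus and tendon fibroblast markers (10 of 12 in the table) summed to 20.3 to 22.4 FPKM at 2 months, at most 19.9 FPKM at 10 months and 28.1 to 120.5 FPKM at 20 months, so that every 20-month library was above all others, while the tendon marker Tnmd was below 1 FPKM in each. Of the 8 tested, 3 rose and 3 fell at 20 against 2 months, and 4 rose and 2 fell at 20 against 10 months. The risers against 2 months were Comp, Dcn and Prg4, by log2 2.23 ± 0.54, 3.19 ± 0.45 and 1.79 ± 0.16 (SE). Those that fell were Col1a1, Scx and Pi16, with changes of -1.84 ± 0.36, -0.72 ± 0.11 and -0.65 ± 0.070. At 20 months Comp ranged from 2.29 to 20.3 FPKM and Dcn from 13.8 to 66.4 FPKM between libraries. The summed level of 8 macrophage and immune markers, 7 of them in the table, was 25.7 to 26.4 FPKM at 2 months, 27.3 to 28.5 FPKM at 10 months and 23.0 to 25.7 FPKM at 20 months, with Ptprc and Adgre1 below 1 FPKM throughout. Of 5 tested immune markers 1 rose (Csf1r, log2 0.61) and 2 fell (Cd68 and Cd74, -0.75 and -1.40) at 20 against 2 months. Of the endothelial and pericyte markers 6 were in the table. They summed to 24.9 to 25.8, 16.6 to 17.3 and 14.8 to 15.2 FPKM at 2, 10 and 20 months. Most of this was Cspg4, with means of 23.3, 12.9 and 12.7 FPKM, while Pdgfrb averaged 1.85, 4.16 and 2.05 FPKM. Cdh5, Emcn, Kdr and Rgs5 were below 1 FPKM in every library. The 7 red blood cell markers summed to 83.9 to 94.2, 9.78 to 10.6 and 37.1 to 42.5 FPKM. The 10 chondrocyte markers summed to 1573 to 1608, 1036 to 1060 and 1236 to 1420 FPKM. Most of this was Acan, with means of 1202, 871 and 1148 FPKM, and Col10a1, Col9a1, Col9a2 and Matn3 were below 1 FPKM in every library. The 9 bone and osteoclast markers, of which Spp1 made up nearly all, summed to 6714 to 6794, 4939 to 5160 and 3398 to 4698 FPKM, with Bglap, Dmp1, Ibsp, Mmp9, Phex and Sp7 below 1 FPKM in every library. Their part in the changes of Dkk3, Lrp5, Lrp6, Ctnnb1 and Tcf7l2 was not tested.

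**Figure D3:**
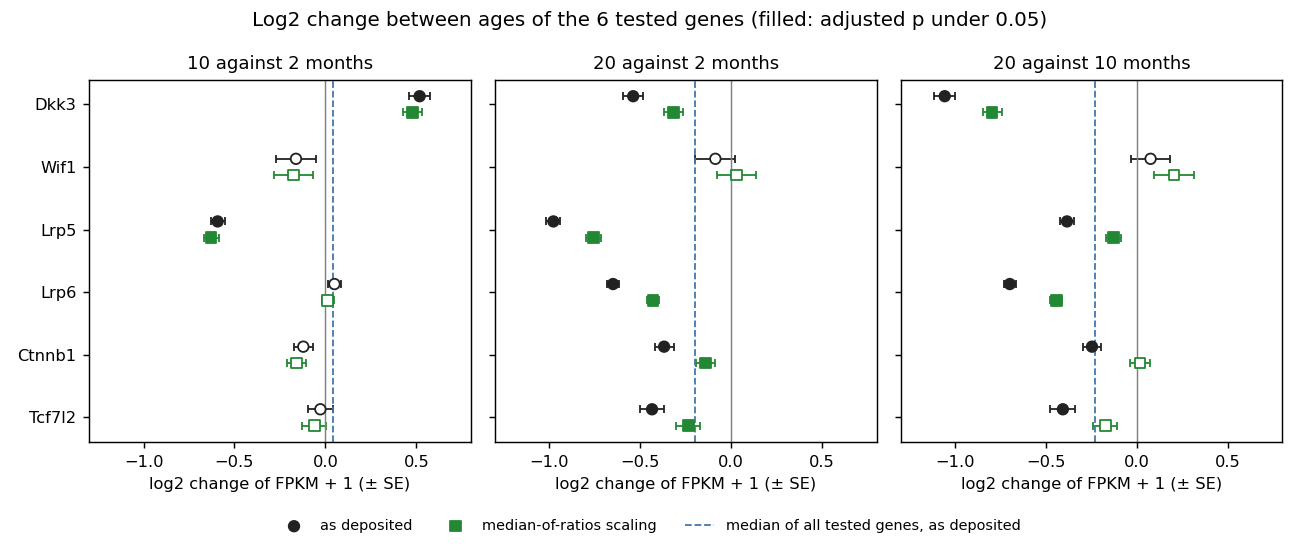
Log2 change of FPKM + 1 with its SE for the 6 tested genes in the 3 comparisons of ages, as deposited (circles) and after median-of-ratios scaling (squares), filled where the adjusted p is under 0.05, with the median of all tested genes as a dashed line. Dkk3, Lrp5 and Lrp6 keep filled symbols in both comparisons with 20 months under both scalings, and the 20 against 10 months change of Ctnnb1 moves to 0.016 after scaling.

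Genes with the most similar pattern were sought by Pearson's r of log2(FPKM + 1) over the 9 libraries, among 7060 named genes with a mean of at least 5 FPKM. The libraries fall into 3 ages, so such an r mainly compares 3 levels and is given as a description. For Dkk3 they were the metallothionein gene Mt1 (r = 0.996), at 104, 168 and 65.1 FPKM at 2, 10 and 20 months, and Usp34. For Lrp5 they were the basement membrane gene Nid2 (r = 0.997), at 69.7, 46.6 and 33.5 FPKM, and Pinlyp. Lrp6 was followed most closely by Plxna1 (r = 0.997) and Exoc6b, Ctnnb1 by Tubb4b (r = 0.989) and Rab3d, and Tcf7l2 by Wdr33 (r = 0.991) and Dlg5. Such likeness was common, since 1099 genes had r over 0.95 with Lrp6 and 237 had it with Dkk3.

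The surroundings of these genes in the pathway were described with 6 lists that hold 105 other genes, of which 87 were in the table and 53 were tested. At 10 against 2 months 9 rose and 5 fell, where 19% of all tested genes were called higher and 11.4% lower. At 20 against 2 months 5 rose and 36 fell, beside 18.6% higher and 49.6% lower over all tested genes. At 20 against 10 months 5 rose and 34 fell, beside 11.4% higher and 53.3% lower. With median-of-ratios scaling 6 rose and 5 fell at 10 against 2 months (all genes 15.1% higher and 14.5% lower), 11 and 23 at 20 against 2 months (31.1% and 31.2%), and 9 and 24 at 20 against 10 months (26.8% and 25.7%). The median log2 change of the 53 genes was 0.024 for 10 against 2, -0.30 for 20 against 2 and -0.36 for 20 against 10 months, against 0.040, -0.20 and -0.23 over all tested genes. Under median-of-ratios scaling these medians were -0.0049, -0.13 and -0.16, against 0.0076, -0.00055 and 0.00060 over all tested genes. The counts of the single lists below are to be read beside the same shares of all tested genes. Several genes, such as Lef1, Tcf7 and Lgr5, stand in more than 1 list.

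Of the ligands and their secretion genes, 6 of 15 in the table were tested. Against 2 months 2 fell at 10 months and 4 at 20 months, and 4 fell at 20 against 10 months, with none rising. Of all tested genes 11.4% fell at 10 against 2 months, 49.6% at 20 against 2 months and 53.3% at 20 against 10 months. With median-of-ratios scaling the falls numbered 2 at 10 against 2 months, 3 at 20 against 2 months and 2 at 20 against 10 months. After it 14.5%, 31.2% and 25.7% of all tested genes fell in these comparisons. Wnt9a, a ligand known from joint formation, averaged 5.03 ± 0.248, 3.30 ± 0.697 and 1.15 ± 0.264 FPKM at 2, 10 and 20 months. It fell by 0.50 at 10 months (adjusted p = 0.0192) and by 1.49 at 20 months (adjusted p = 1.04e-05) against 2 months. Wnt5a, which mostly acts without beta-catenin, fell at 20 against 2 months by 0.88 (adjusted p = 1.97e-04), and Wnt4 at 10 against 2 months by 0.45 (adjusted p = 0.0304). After median-of-ratios scaling the 20 against 2 months changes of Wnt9a and Wnt5a were -1.35 and -0.68. Wls, the carrier of Wnt proteins to the cell surface, was the highest of the list at 44.8 ± 2.47 FPKM at 20 months and 54.5 ± 0.415 FPKM at 10 months. Its fall of 0.28 (adjusted p = 2.90e-04) was -0.017 after median-of-ratios scaling.

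Of 9 tested receptor and R-spondin axis genes, 2 rose and 1 fell at 10 against 2 months, 2 rose and 5 fell at 20 against 2 months, and 1 rose and 5 fell at 20 against 10 months (all tested genes 49.6% and 53.3% lower in the comparisons with 20 months). With median-of-ratios scaling 2 rose and 3 fell at 20 against 2 months, and 1 rose and 4 fell at 20 against 10 months. Of all tested genes 31.1% rose and 31.2% fell, and 26.8% rose and 25.7% fell, in these scaled comparisons. The Frizzled receptor gene Fzd4 rose at each later age, with 4.68 ± 0.269, 6.39 ± 0.0875 and 10.3 ± 0.324 FPKM at 2, 10 and 20 months (log2 0.99 ± 0.051 for 20 against 2 months, adjusted p = 6.02e-07). Fzd6 rose at 10 against 2 months by 0.54 (adjusted p = 3.66e-04). Fzd7 fell at 20 against 2 months by 0.70 (adjusted p = 2.45e-05), and Lgr4, a receptor for R-spondins, fell at 20 against 10 months by 0.52 (adjusted p = 2.47e-04). After median-of-ratios scaling these changes of Fzd7 and Lgr4 were -0.55 and -0.28 (adjusted p = 1.40e-04 and 0.00817). Of the other antagonists only Kremen1 and Sostdc1 were tested. Sostdc1, a secreted inhibitor of BMP and Wnt signals, averaged 2.38 ± 0.361, 4.32 ± 0.379 and 2.49 ± 0.575 FPKM at 2, 10 and 20 months, and was called higher at 10 against 2 months (adjusted p = 0.00592) and lower at 20 against 10 months (adjusted p = 0.00283). Kremen1, a Dickkopf receptor, fell at 20 against 2 months by 0.50 (adjusted p = 1.36e-04), a change of -0.32 after median-of-ratios scaling.

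Inside the cell, 3 of 15 tested genes of the destruction complex and Dishevelled rose at 10 against 2 months (0 after median-of-ratios scaling). At 20 months 1 rose and 11 fell against 2 months, and 1 rose and 10 fell against 10 months (4 and 6, and 3 and 5, after that scaling), beside 49.6% and 53.3% of all tested genes lower (31.2% and 25.7% after it). Dvl3, a Dishevelled protein that passes the signal from the receptors, stood at 14.8 ± 0.586 FPKM at 20 months and 25.8 ± 0.658 FPKM at 2 months (log2 -0.77 ± 0.045, adjusted p = 1.12e-06). After median-of-ratios scaling the change of Dvl3 was -0.55. The Dishevelled gene Dvl1 went the other way, with 9.66, 10.9 and 13.5 FPKM at 2, 10 and 20 months. It rose at 20 against 2 months by 0.44 ± 0.048 (adjusted p = 3.78e-05), and by 0.66 after that scaling. Dvl2 changed there by -0.14 ± 0.051 (adjusted p = 0.0306), and by 0.060 after that scaling (adjusted p = 0.344). Gsk3b, the kinase that marks beta-catenin, stood at 10.7 ± 0.102 FPKM at 20 months and 18.6 ± 0.753 FPKM at 2 months (-0.75 ± 0.058, adjusted p = 4.85e-06). After median-of-ratios scaling the change of Gsk3b was -0.54. Among 14 tested nuclear partners of beta-catenin 1 rose and 2 fell at 10 against 2 months, 1 rose and 10 fell at 20 against 2 months, and 1 rose and 9 fell at 20 against 10 months (all tested genes 49.6% and 53.3% lower at 20 months). With median-of-ratios scaling 3 rose and 8 fell in each comparison with 20 months, beside 31.2% and 25.7% of all tested genes lower. The co-activator gene Bcl9l fell to 11.1 ± 0.613 FPKM at 20 months, against 25.9 ± 0.694 FPKM at 2 months (-1.15 ± 0.045, adjusted p = 1.27e-07), a change of -0.94 under median-of-ratios scaling. The acetyltransferase gene Crebbp fell by 0.81 at 20 against 2 months (adjusted p = 9.05e-07), a change of -0.61 under that scaling. The TCF gene Tcf7l1 was already lower at 10 than at 2 months (-0.23 ± 0.047, adjusted p = 0.00621), while the co-repressor gene Tle2 rose (0.53 ± 0.14, adjusted p = 0.0215).

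Of 8 tested beta-catenin targets 2 rose and 0 fell at 10 against 2 months, 1 rose and 5 fell at 20 against 2 months, and 2 rose and 4 fell at 20 against 10 months (all tested genes 49.6% and 53.3% lower at 20 months). With median-of-ratios scaling as many rose as fell at 20 against 2 months, 2 each, and 2 rose and 3 fell at 20 against 10 months. Over all tested genes 31.1% rose and 31.2% fell, and 26.8% rose and 25.7% fell, after that scaling. The cyclin gene Ccnd1 averaged 22.8 ± 0.306, 36.1 ± 0.745 and 18.1 ± 2.69 FPKM at 2, 10 and 20 months, and was called higher at 10 against 2 months (0.64 ± 0.087, adjusted p = 7.76e-04) and lower at 20 against 10 months (-0.97 ± 0.087, adjusted p = 2.12e-05). The matricellular gene Ccn4 was likewise called higher at 10 against 2 months (adjusted p = 0.0123) and lower at 20 against 10 months (adjusted p = 2.37e-05), with 13.3 ± 0.437, 16.1 ± 1.04 and 9.84 ± 0.621 FPKM at the 3 ages. The proto-oncogene Myc, which has many other regulators, rose at 20 against 2 months by 0.68 (adjusted p = 1.83e-04). Lef1, Tcf7, Nkd1, Notum and Lgr5 of this list were below 0.5 FPKM in every library, as was Axin2. Nkd2 of this list averaged 2.26, 2.02 and 1.02 FPKM at 2, 10 and 20 months. It fell at 20 months against 2 months (-0.69 ± 0.11, adjusted p = 3.82e-04) and against 10 months (-0.58 ± 0.11, adjusted p = 0.00131). With median-of-ratios scaling these changes were -0.56 and -0.43, both still called. Rnf43 averaged 1.36, 1.99 and 1.35 FPKM and was not called in any comparison.

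**Figure D4:**
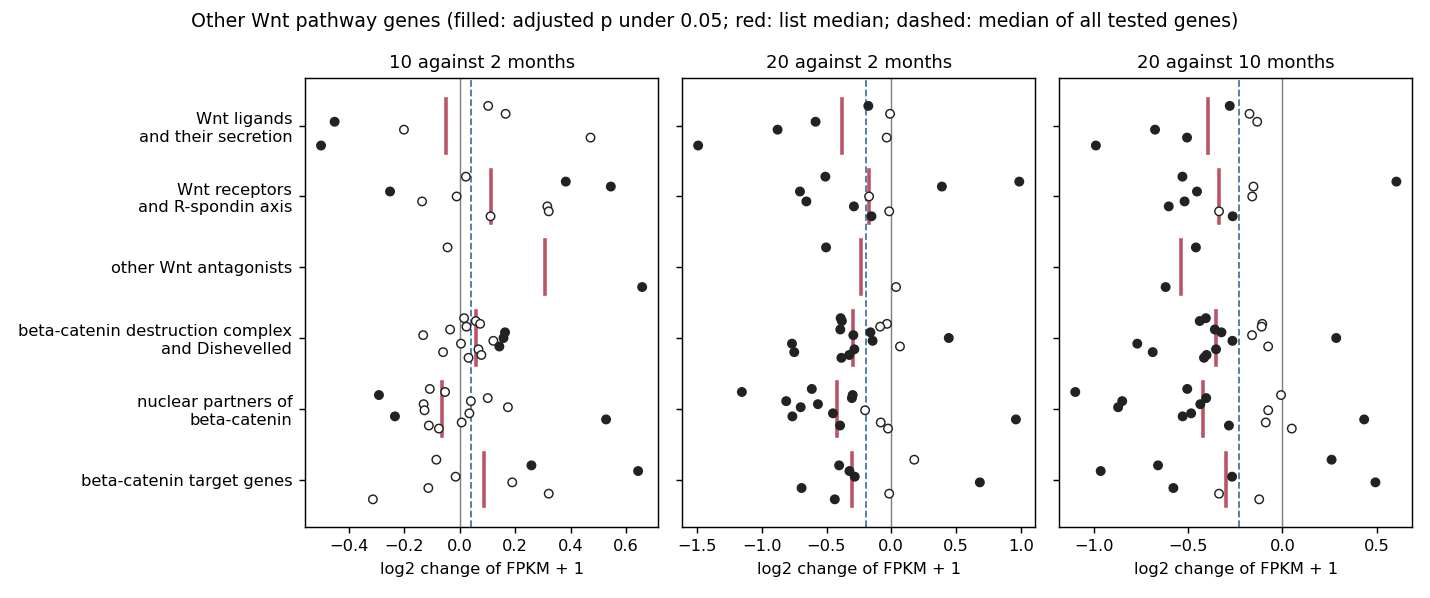
Log2 change of FPKM + 1 of the other tested Wnt pathway genes in the 3 comparisons of ages by list, with filled points for adjusted p under 0.05, a red line for the list median and a dashed line for the median of all tested genes. In both comparisons with 20 months most filled points lie left of 0, and Fzd4, Tle2 and Dvl1 are among those to the right.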

How the data were processed

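Input libraries of poly(A) RNA from rat nucleus pulposus, 3 per age, were analysed, and the 9 immunoprecipitated libraries were not used here. The authors deposited gene and isoform FPKM values, per the file headers, and deposited read coverage per transcript. Per the submitters' processing notes the tools included StringTie 1.3.4d, HISAT2 2.0.4 and cutadapt 1.9, beside edgeR and DESeq2, with no role stated. The sources used here give no genome build. Aligned bases per library were computed from the ratio of FPKM to coverage, which was constant within a library, and bases per gene as coverage times length. Read counts were not used here, so counting intervals are not given.

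A gene entered the tests when 3 or more of the 9 libraries reached 1 FPKM (11708 genes). Values were taken as log2(FPKM + 1) and fitted with limma (version 3.58.1, R 4.3.3, trended empirical Bayes) in 1 model of the 3 ages with no replicate block. Adjusted p-values are Benjamini-Hochberg's over all tested genes, called under 0.05. Isoform use was tested for isoforms holding 10 to 90% of a gene on average, in genes whose isoforms numbered at least 2 and summed to 5 FPKM or more, with 0.5 added to both values of the ratio. Alternatives were pseudocounts of 0.1 and 5, other filters and scalings, array weights, a replicate block and leaving out libraries. The genes and lists were chosen with earlier results of these data known. In each list up to 2 called genes per comparison with the smallest adjusted p were eligible to be named, and for each of the 9 genes with a mean of at least 5 FPKM the 2 nearest in pattern. Other genes named from lists were chosen after their values were seen. Median-of-ratios scaling used the tested genes. No replicates were identical (Pearson's r 0.99 to 0.996 within an age, log2 scale). The median chi-square of a gene between 2 replicates, on fragments estimated from coverage, was 0.550 to 0.662 at 2 and 10 months. At 20 months it was 1.287 to 1.475, while the fit used 1 shared spread for all ages.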

Additional observations from a re-analysis of the deposited data

How the results depend on the processing

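Of the 18 log2 changes of the 6 tested genes, Dkk3, Lrp5 and Lrp6 had the same direction and the same side of the threshold in every comparison under all alternatives run, with Dkk3 at 10 against 2 months between 0.48 and 0.54. Median-of-ratios scaling left 3 of 5 genes called at 20 against 10 months, since Ctnnb1 went to 0.016 and Tcf7l2 missed the threshold. Quantile normalization gave Ctnnb1 -0.13 there (adjusted p = 0.0545). Ctnnb1 at 10 against 2 months was called with array weights, with those ages alone, and without replicate 2 or 3 of 20 months (adjusted p = 0.0384 and 0.037). Wif1, which was never called at 20 against 2 months, changed sign there to 0.029 with median-of-ratios scaling and 0.078 with quantile normalization, and was called at 20 against 10 months with quantile normalization (0.35, adjusted p = 0.0265). It fell below the filter when all 9 libraries had to reach 1 FPKM, and without replicate 1 or 3 of 2 months or replicate 1 of 20 months. Leaving out 1 library gave the uncalled Tcf7l2 change at 10 against 2 months values from -0.071 to 0.0024, and the uncalled Lrp6 isoform change from -0.024 to 0.089. The cause of these shifts was not tested.

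The count of other Wnt pathway genes called at 10 against 2 months was 14 of 53, and 22 with array weights. It was 6 to 18 when 1 library was left out: 6, 7 and 7 without replicates 1, 2 and 3 of 2 months, and 8, 7 and 9 without those of 10 months, fits with fewer samples. Over all tested genes the count moved as well: it was 3551, 5116 with array weights and 2491 to 4065 when 1 library was left out. With a replicate block 2, 5 and 5 of the 6 tested genes were called in the comparisons of 10 with 2, 20 with 2 and 20 with 10 months, as without it, and 3185, 7859 and 7467 genes in all, against 3551, 7986 and 7576. The block changed no call of the 6 genes. Same-numbered libraries of different ages did not deviate together (correlations of -0.04 to 0.0491). With 3 libraries per age this cannot exclude a pairing, and the labels do not say that the numbers pair libraries. Depth and the log2(FPKM + 1) scale limit Frzb, Axin2 and Sfrp2, and m6A was not analysed here.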

Other observations

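The deposited table also assigns genes to the Wnt signaling pathway of KEGG, a list chosen after the data were seen. Without the 9 genes above it held 131 genes, of which 87 were tested. At 10 against 2 months 19 rose and 15 fell (14 and 20 after median-of-ratios scaling). Over all tested genes 19% were called higher and 11.4% lower there (15.1% and 14.5% after that scaling). At 20 months 14 rose and 56 fell against 2 months (23 and 40), and 10 rose and 53 fell against 10 months (20 and 32). Of all tested genes 18.6% rose and 49.6% fell at 20 against 2 months (31.1% and 31.2% after that scaling). Of the same genes 11.4% rose and 53.3% fell at 20 against 10 months (26.8% and 25.7%). The median log2 change of these 87 genes was -0.33 for 20 against 2 months and -0.32 for 20 against 10 months, against -0.20 and -0.23 over all tested genes, and -0.12 and -0.073 after that scaling.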
